A study of Bos taurus with 19 samples.

Results

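Expression of 5 genes of the stromal matrix was examined in subcutaneous adipose tissue, namely COL1A1, COL1A2, COL3A1, SPARC and DCN, which are 5 of the 25670 Ensembl genes counted in each library. They were chosen by identifier, as ENSBTAG00000013103 (COL1A1), ENSBTAG00000013472 (COL1A2), ENSBTAG00000021466 (COL3A1), ENSBTAG00000014835 (SPARC) and ENSBTAG00000003505 (DCN), and all 5 were among the 10064 genes that passed the filter on low counts. The count files carry identifiers only and the symbols came with the choice of genes. The RefSeq gene table used here lists all 5 symbols but pairs none with an Ensembl identifier, so the pairing was not checked against an annotation. The animals were 19 Holstein-Friesian bulls, 10 on a high and 9 on a low plane of nutrition from early calf-hood. The paper assigned 10 calves to each diet, and the data used here hold 9 of the low animals. High animals were offered more milk replacer and concentrates ad libitum, low animals restricted amounts of each, and the labels give growth rates of 1.08 kg/day (high) and 0.5 kg/day (low), where the design text has 1.2 and 0.5 kg/day. Slaughter was at 126 days of age, and subcutaneous adipose tissue was taken from the flank, with visible blood vessels removed. RNA of the whole tissue was sequenced from 1 library per animal, so fewer cells of a type and less RNA per cell cannot be told apart in any value below. In sections of this tissue, the paper reports more and larger adipocytes in high than in low animals. It also reads its histology and expression data as showing more preadipocytes in the low animals. The part of these differences in the values below was not tested.

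Fibrillar collagens are the rope-like proteins that give connective tissue its tensile strength. Type I collagen is assembled from the chains encoded by COL1A1 and COL1A2, and type III collagen from the chain encoded by COL3A1, which forms mixed fibrils with type I in soft tissues. SPARC, also called osteonectin, is a secreted glycoprotein that binds collagen and takes part in its handling outside the cell, and decorin (DCN) is a small leucine-rich proteoglycan that binds to the fibril surface and regulates its assembly. In adipose tissue such genes are expressed chiefly by fibroblasts and adipocyte progenitors, and the matrix surrounds adipocytes and is remodelled as they enlarge.

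Reads counted on genes ranged from 8608800 to 17691547 in the high and from 7656100 to 12348770 in the low animals, with more reads in the high group (exact permutation test, two-sided, p = 0.0251). In a multi-dimensional scaling (MDS) of the libraries without these 5 genes, based on the 500 genes that varied most by biological coefficient of variation (BCV), dimension 1 ran from -0.154 to 0.511 in the high and from -0.39 to -0.0355 in the low animals. Of the high animals, D64 (-0.151) and D75 (-0.154) lay nearest the low animals, and of the low animals D78 (-0.0355) lay nearest the high group, so results are also given without these 3. They were picked for lying nearest the other diet, and that choice can by itself widen a difference between the diets. Marker genes of adipocytes and of other cell types could not be looked up by identifier, so neither the label of the tissue nor its cell content was checked here.

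The 5 genes together took a much larger part of the library in the high than in the low animals. Their share of counted reads was lowest in D62 (9.94%), had a median of 16.5% and was highest in D73 (22.0%) among the high animals. Among the low animals it was lowest in D77 (3.47%), had a median of 7.19% and was highest in D78 (12.4%). The ranges overlapped, since D62 lay below D78. The mean share was 16.7% ± 4.02 (SD, n = 10) in high and 7.13% ± 2.66 (SD, n = 9) in low, a difference of -9.61 percentage points (95% interval -12.9 to -6.24; exact permutation test, two-sided, 92378 splits of the animals, p = 6.5e-05). This share uses no scaling factor, and without D64, D75 and D78 the difference was -9.37 percentage points (exact permutation p = 0.000155).

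**Figure D1:**
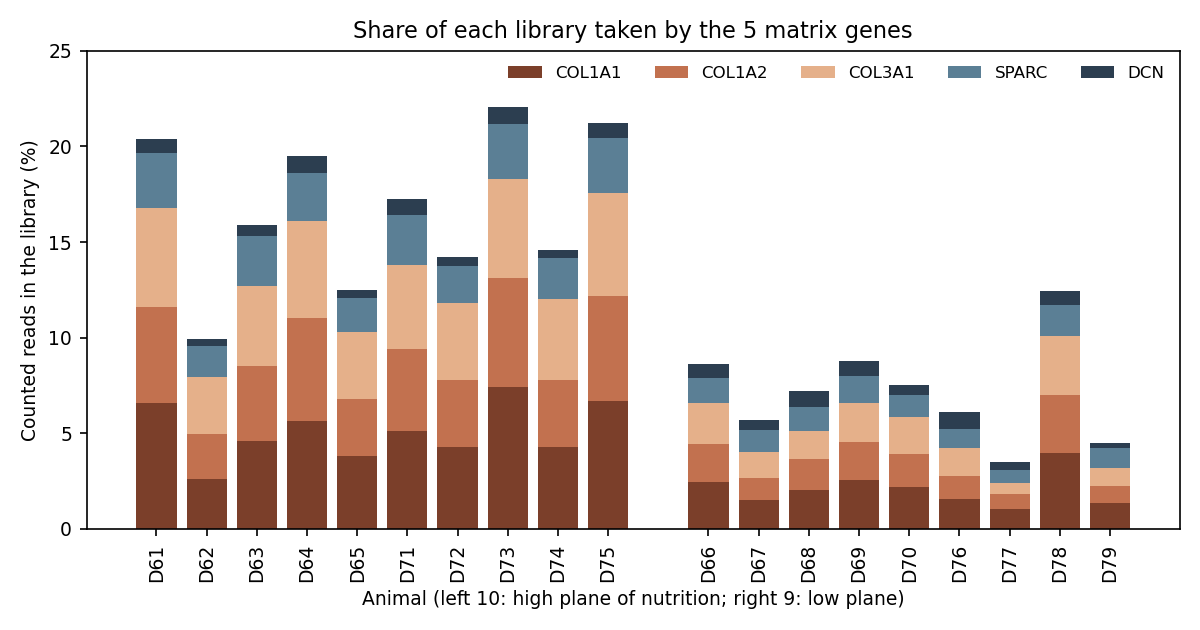
Stacked bars give the percent of counted reads on each of the 5 genes in each animal, with the 10 high animals on the left and the 9 low animals on the right. The stacks reach 9.94 to 22.0% in high and 3.47 to 12.4% in low animals, and the topmost segment (DCN) is of similar height in both diets.

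By number of reads, not corrected for transcript length, these were among the most abundant transcripts of the tissue. COL1A1 ranked first of all genes in 13 of 19 animals and no lower than 3 in any. COL1A2, COL3A1 and SPARC were among the 5 genes with the most reads in all 19 animals, whereas DCN ranked between 6 and 30. The fewest reads on any of the 5 genes in an animal were 24060 (DCN), so counting error was small beside the differences between animals. Levels are not compared between genes, because transcript lengths were not used.

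Of the 5 genes, 4 were expressed at a lower level in low than in high animals at a false discovery rate (FDR, the adjusted p-value) below 0.05 and a fold change above 2, and none had higher expression. Over all genes tested, 5.36% were lower in low and 1.91% were higher at the same thresholds. The 5 genes were chosen with earlier results of these data known, so this comparison is a description and not a test. The 4 lower genes were COL1A1, COL1A2, COL3A1 and SPARC, and DCN did not pass. Expression is given below as CPM, the count scaled to library size, after scaling by the trimmed mean of M-values (TMM), and fold changes and FDR are those of the quasi-likelihood F test of edgeR over the 10064 genes.

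COL1A1, the gene of the more plentiful chain of type I collagen, had a CPM of 31894 at the lowest, 53680 at the median and 82934 at the highest in the high animals. In the low animals the lowest was 8997, the median 18364 and the highest 38208. Apart from D78, the low animals all lay below the lowest high animal (D62). The means were 55872 ± 14975 (SD, n = 10) in high and 18973 ± 8503 (SD, n = 9) in low, a log2 fold change of -1.56 (SE 0.23; 95% interval -2.04 to -1.08). Expression was thus 2.94-fold higher on the high plane of nutrition (edgeR, FDR = 0.000106).

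COL1A2, which encodes the partner chain, ranged from 28060 through a median of 44783 to 63303 CPM in high animals. It ranged from 6774 through a median of 14870 to 29071 CPM in low animals. The same pair overlapped, with the low animal D78 just above the high animal D62, and the remaining 8 low animals lay below every high animal. The log2 fold change was -1.65 (SE 0.233; 95% interval -2.14 to -1.17; edgeR, FDR = 6.87e-05), or 3.15-fold higher in high. The RefSeq table places a long non-coding RNA within the span of COL1A2, and the strand used in counting is not given in the sources used here, so its reads could be included.

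COL3A1, the type III collagen gene, ranged from 36441 through a median of 48391 to 57950 CPM in the high animals. In the low animals it ranged from 5194 through a median of 13322 to 29339 CPM. The diets did not overlap, as was seen in 1.27% of all genes tested for low below high. The log2 fold change was -1.67 (SE 0.226; 95% interval -2.14 to -1.20; edgeR, FDR = 5.39e-05), or 3.18-fold higher in high, the largest estimate among the 5. The high animals were close together, with a coefficient of variation of 14.5%, whereas that of the low animals was 45.5%.

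SPARC also separated the diets without overlap. Its CPM ranged from 19838 through a median of 27010 to 32210 in high animals and from 5878 through a median of 10504 to 15599 in low animals. The log2 fold change of -1.29 (SE 0.15; 95% interval -1.61 to -0.98) was smaller than that of the collagens, but so was its standard error, and the FDR was the lowest of the 5 (edgeR, FDR = 1.49e-05). Ordered by p-value, SPARC was at place 19 of the 10064 genes, ahead of COL3A1 at 61, COL1A2 at 83 and COL1A1 at 108. Expression was 2.45-fold higher in high.

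DCN showed a different pattern from the collagens whose fibrils its protein binds. Its CPM ranged from 4264 through a median of 6768 to 9560 in high animals and from 2426 through a median of 6350 to 8063 in low animals. The diets overlapped widely, and only 2 of the 9 low animals lay below the lowest high animal. The means were 6746 ± 2051 (SD, n = 10) and 5641 ± 1921 (SD, n = 9), with a log2 fold change of -0.26 (SE 0.217; edgeR, FDR = 0.363). The 95% interval of -0.71 to 0.19 leaves room for expression up to 1.64-fold higher in high, and holds no 2-fold difference in either direction. As a share of counted reads, DCN was at 0.617% ± 0.206 (SD, n = 10) in high and 0.619% ± 0.209 (SD, n = 9) in low animals (exact permutation test, p = 0.982).

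**Figure D2:**
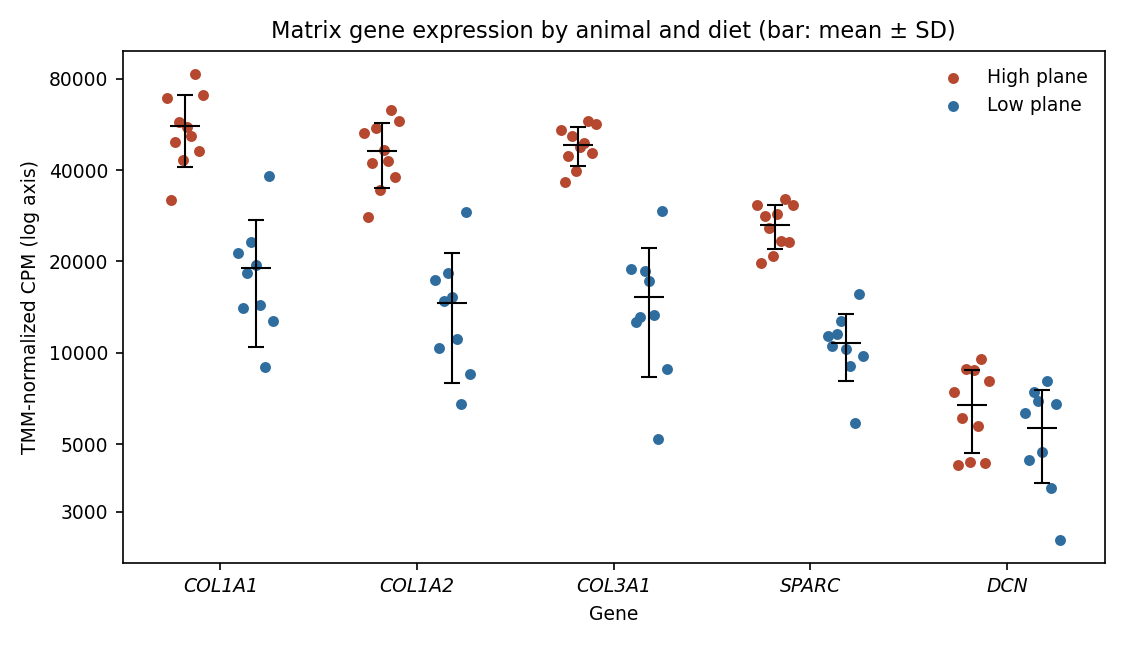
TMM-normalized CPM on a log axis for each gene, with 1 point per animal and the mean ± SD of each diet as a bar (10 high, 9 low). High and low animals are apart for COL3A1 and SPARC, overlap only through D62 and D78 for COL1A1 and COL1A2, and overlap widely for DCN.

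The low animals had the larger SD of log2 CPM in all 5 genes. On this scale, the SD of COL3A1 was 0.22 in high and 0.72 in low, that of COL1A1 0.40 and 0.60, that of COL1A2 0.37 and 0.64, and that of SPARC 0.25 and 0.39. The highest low animal had 5.65 times the COL3A1 expression of the lowest, against 1.59 times among the high animals. For DCN the SDs were 0.46 and 0.57. These differences in spread were not tested, and the spread of all other genes was not computed.

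Ratios of reads between 2 of the genes within the same library need no scaling factor, and all 10 pairs were compared between the diets by two-sided exact permutation tests with adjustment over the 10. The ratio of DCN to each of the other 4 genes was higher in low animals. For every 100 COL1A1 reads there were 9.38 to 15.7 DCN reads in high animals (median 11.5) and 17.8 to 56.1 in low animals (median 29.8). Every low animal lay above every high animal, and the ratio was 2.53 times higher in low (95% interval 1.93 to 3.33; exact permutation p = 1.08e-05, the smallest that 92378 splits can give; adjusted p = 3.61e-05). The ratio to COL1A2 was 2.74 times higher in low (95% interval 2.14 to 3.53) and that to COL3A1 2.86 times higher (2.11 to 3.86), and each again placed all 9 low animals above all 10 high animals (exact permutation, adjusted p = 3.61e-05 for both). These ratios share DCN, whose own expression differed little between the diets, so they largely restate the fall of the collagens and are not separate results. How many other genes would separate the diets by such a ratio was not computed. Against SPARC the DCN ratio was 2.05 times higher (1.56 to 2.66), with 8 of the 9 low animals above the highest high animal (exact permutation, adjusted p = 0.000244).

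SPARC moved less than the collagens. Its reads per 100 COL3A1 reads had a median of 54.3 in high (47.5 to 63.2) and 68.5 in low animals (53.2 to 113), a ratio 1.40 times higher in low (95% interval 1.15 to 1.69; exact permutation, adjusted p = 0.00132). The ratio of SPARC to COL1A2 was 1.34 times higher (1.12 to 1.60; exact permutation, adjusted p = 0.00424) and that to COL1A1 1.24 times higher (1.05 to 1.45; exact permutation, adjusted p = 0.0189). The ranges of the diets overlapped in each of these 3 pairs.

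Among the collagens themselves the ratios shifted little or not detectably. COL1A2 had a median of 82.5 reads per 100 COL1A1 reads in high (76.2 to 95.7) and 77.1 in low animals (66.8 to 81.9), a ratio in low of 0.922 times that in high (95% interval 0.866 to 0.98; exact permutation, adjusted p = 0.0127). For COL3A1 to COL1A1 it was 0.886 times (0.769 to 1.02; exact permutation, adjusted p = 0.1) and for COL3A1 to COL1A2 0.961 times (0.846 to 1.09; exact permutation, adjusted p = 0.521). The type III and type I collagen genes therefore fell by amounts that could not be told apart at this spread, within the bounds of these intervals.

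**Figure D3:**
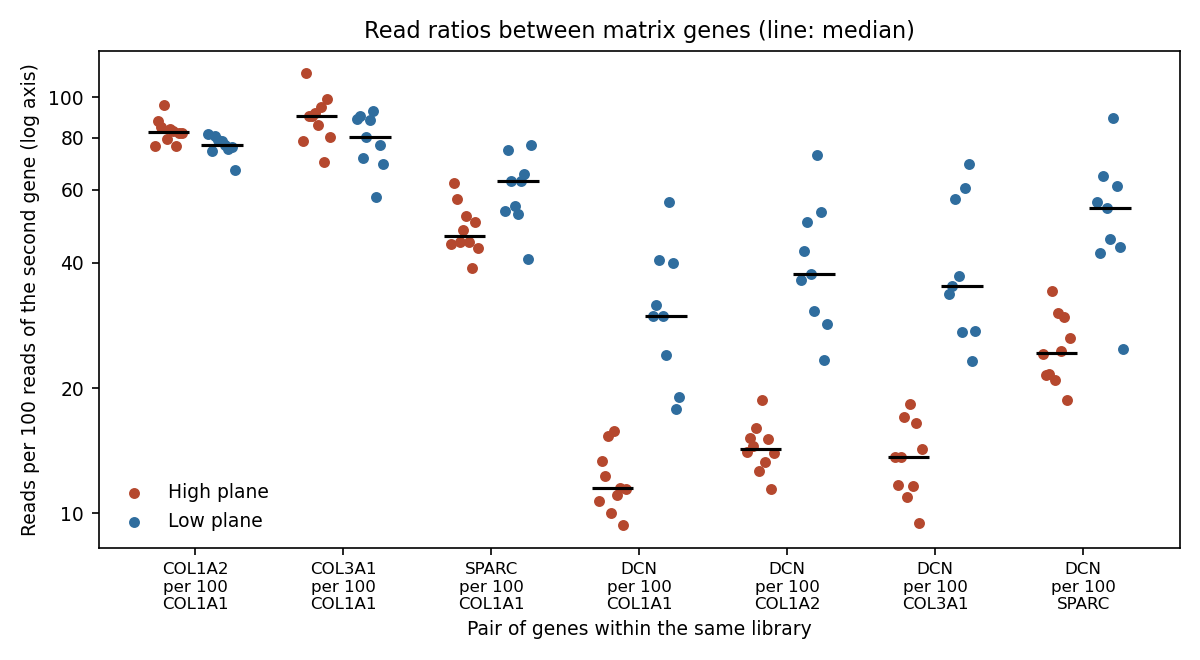
Reads of a gene per 100 reads of a second gene in the same library, on a log axis, with 1 point per animal and a line at the median of each diet. For DCN per 100 COL1A1 the high animals sit between 9.38 and 15.7 and the low animals between 17.8 and 56.1, whereas the COL1A2 to COL1A1 ratio stays within 66.8 to 95.7 in all animals.

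Within each diet the 4 genes that fell also varied together between animals. Correlations were computed on log2 CPM for the 10 pairs of genes in each diet, 20 in all, with permutation p-values (exact for the 9 low animals, 100000 resamples for the 10 high animals) adjusted over the 20. COL1A1 and COL1A2 correlated at r = 0.971 (rho = 0.988; permutation, adjusted p = 5e-05 and 0.0001) in high and at r = 0.992 (rho = 1) in low animals. Over the 6 pairs of COL1A1, COL1A2, COL3A1 and SPARC, r was between 0.862 and 0.973 in high and between 0.897 and 0.992 in low animals, and each passed an adjusted p of 0.05 for both r and rho. COL3A1 and SPARC rested most on the extreme animals, with r = 0.651 in high without D62 and D65 and r = 0.570 in low without D77 and D78.

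DCN followed the other genes among the high animals. There its r was between 0.833 (with COL3A1) and 0.915 (with COL1A2), with adjusted permutation p-values of 0.00404 or below. Among the low animals r was between 0.492 (with SPARC) and 0.660 (with COL1A2), and no adjusted permutation p-value passed 0.05. Whether the correlations differed between the diets was not tested. The same animals stood at the ends, since D73 was highest and D62 lowest among the high animals in all 5 genes, and D78 was highest and D77 lowest among the low animals in COL1A1, COL1A2, COL3A1 and SPARC. In DCN, D76 was the highest low animal and D79 the lowest.

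Among the high animals, the share of reads on the 5 genes tended to be larger in those nearer the low animals in the rest of the transcriptome, a relation that passed adjustment by rank (Spearman) but not by Pearson correlation. This relation was examined after the values had been seen, as 1 of 6 relations within a diet (dimension 1 of the MDS without the 5 genes, counted reads and TMM factor, in each diet). In the 10 high animals the share fell along dimension 1, towards the high side, with Pearson r = -0.771 (permutation p = 0.00928, adjusted p = 0.0557) and Spearman rho = -0.855 (permutation p = 0.00242, adjusted p = 0.0145). Without D64 and D75, the 2 animals farthest from the median of dimension 1, r was -0.81. D64 and D75 held 19.5 and 21.2% of their reads on the 5 genes, whereas D62, farthest to the high side, held 9.94%. D73 departed from this order, with the largest share of all (22.0%) at 0.303 on dimension 1. The direction is opposite to that between the diets, where the high animals had the larger share.

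In the 9 low animals the relation to dimension 1 was not detected (r = 0.557, exact permutation p = 0.125, adjusted p = 0.188; rho = 0.0833, exact permutation p = 0.843), and without D78 and D70 r was -0.374. For counted reads, r was -0.451 in high (permutation p = 0.194, adjusted p = 0.232) and -0.623 in low animals (exact permutation p = 0.0716, adjusted p = 0.143), and the rho values were -0.43 and -0.40 (permutation p = 0.217 and 0.291). For the TMM factor, r was 0.696 in high (permutation p = 0.0268, adjusted p = 0.0804) and -0.355 in low animals (exact permutation p = 0.354). The part of depth or of scaling in the relation to dimension 1 was not tested.

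**Figure D4:**
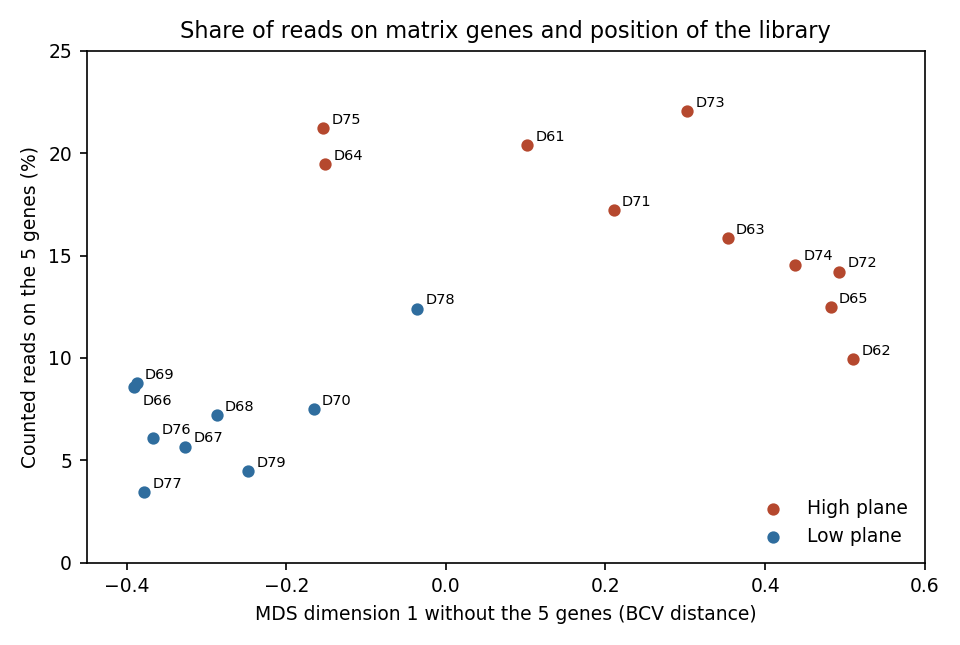
The percent of counted reads on the 5 genes (vertical axis) against dimension 1 of the MDS computed without them (horizontal axis, BCV distance), 1 point per animal. The high animals run from D75 and D64 at the upper left to D62 at 9.94% on the far right, with D73 highest at 22.0% in between, and the low animals lie at 3.47 to 12.4% on the left.

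The 8 other genes with the pattern most like the 5 were found by the correlation of log2(CPM + 1) with the mean of the 5 genes over 19 animals, after the mean of each diet was removed. Their r was between 0.877 and 0.943, and 40 of the other genes tested had r above 0.8, against a median r of -0.041. DCN itself had r = 0.805 with the mean that includes it, and the collagens and SPARC 0.92 to 0.985. All 8 had lower expression in low at an FDR below 0.05, as did 18.5% of all genes tested. Of the 8, 5 also passed the fold change of 2, as did 5.36% of all genes tested. The first was ENSBTAG00000018281 (r = 0.943), whose CPM was 145 ± 26.0 (SD, n = 10) in high and 58.6 ± 20.6 (SD, n = 9) in low animals. The next was ENSBTAG00000009705 (r = 0.943), with 1701 ± 457 (SD, n = 10) and 550 ± 189 (SD, n = 9). Both are given by identifier, since their names could not be looked up.

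The fold changes of the 4 genes were in the same direction and past the FDR threshold with each scaling, test, filter and set of animals tried. Scaling by total counts brought the estimates nearest to 0. There the log2 fold change of the median gene rose from 0.02 to 0.30, and that of COL1A1 was -1.30, of COL1A2 -1.39, of COL3A1 -1.40 and of SPARC -1.03. DCN was then at 0.01, so its direction depended on the scaling. Relative to the median gene of the same fit, the values were -1.60 for COL1A1 and -1.33 for SPARC under total counts and -1.58 and -1.32 under TMM. With TMM factors computed without the 5 genes, COL1A1 was at -1.57 and SPARC at -1.30, within 0.01 of the values with all genes. A trimmed mean already sets aside genes with extreme ratios, so dropping 5 of 10064 genes could move it little. With log2 library size in the model, the estimates were -1.84 (COL1A1), -1.95 (COL1A2), -1.92 (COL3A1) and -1.50 (SPARC). Without D64, D75 and D78 they were -1.71, -1.77, -1.81 and -1.36 in the same order and -0.21 for DCN (edgeR, FDR = 0.524), and the log2 difference in the ratio of DCN to COL1A1 was 1.47 in place of 1.34.

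**Figure D5:**
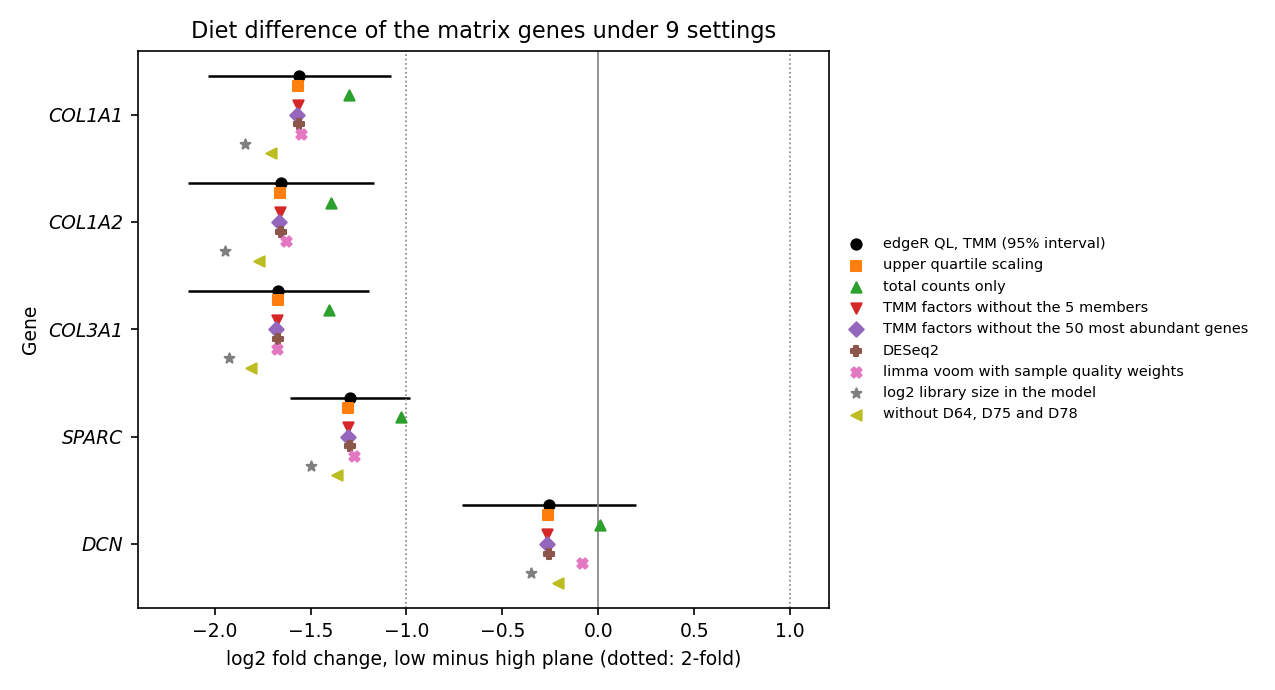
Log2 fold changes (low minus high) of the 5 genes under the edgeR quasi-likelihood fit with its 95% interval and under 8 other settings, with dotted lines at a 2-fold change. COL1A1, COL1A2, COL3A1 and SPARC lie between -1.95 and -1.03 throughout, and DCN lies between -0.35 and 0.01.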

How the data were processed

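Single-end mRNA libraries of 19 bulls were aligned by the authors to the bovine genome (UMD3.1) with STAR, and uniquely mapped reads were counted per gene with HTSeq. The authors deposited raw counts, 1 file per animal, with no normalization or filter. Treatment was taken from the sample labels. The 5 genes, the lists and the tests were chosen with earlier results of these data known. The filter kept 10064 of 25670 genes, those reaching 5 CPM in 9 or more animals, and 5 CPM was 38.3 to 88.5 reads depending on the library. TMM factors were 0.829 to 0.987 in high and 1.05 to 1.15 in low animals.

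The test was the robust quasi-likelihood F test of edgeR 4.0.16 in R 4.3.3, with treatment as the only term and Benjamini-Hochberg adjustment over all genes tested. Standard errors were taken as |log2 fold change| / √F. Shares and ratios were compared by exact permutation (two-sided, every division of the 19 animals into 10 and 9), with 95% intervals from inverting the test (SciPy 1.17.1). Fits and permutations were tested on simulated data. Alternatives were DESeq2 1.42.0, limma 3.58.1 (voom, sample quality weights), the exact test and the likelihood ratio test of edgeR, other scalings, filters and thresholds, library size as a covariate, and leaving out animals. The relations to the MDS were added after the data were seen, as were the correlations with TMM factors computed without the 5 genes, where r in any pair moved by 0.0212 or less. Within a treatment, the smallest chi-square per degree of freedom between 2 libraries was 20.9 over 81 pairs, far above sampling noise.

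Lists of other matrix genes and of cell markers had been set by symbol, but the files do not pair identifiers with symbols and the RefSeq table used (ARS-UCD2.0, another build) holds no Ensembl identifiers. These lists, genome positions and sequences are not analysed here. By rule the text names the 5 genes and, by identifier, the first 2 of the 8 genes most like them. Calves had been blocked by sire, starting weight, farm and age before assignment, but the block of each animal is not in the labels. The blocks were therefore not used, nor was the sequencing lane, which the labels also lack, and their part in the results was not tested. The paper pooled as many libraries per lane as it had calves per diet. Lane could thus coincide with diet, in which case the effects of lane and diet cannot be told apart.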

Additional observations from a re-analysis of the deposited data

Results flagged for a closer look

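Dixon's test was run on 32 sets of values (CPM of the 5 genes, their joint share and the 10 ratios, in each diet), where chance gives about 1.6, and it set 2 animals apart. The low animal D78 had a COL1A1 expression of 38208 CPM, with the next low animal at 23247. Without it the log2 fold change of COL1A1 was -1.76 in place of -1.56. The low animal D79 had 66.8 COL1A2 reads per 100 COL1A1 reads, with the next low animal at 74.2.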

How the results depend on the processing

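Leaving out each animal in turn gave log2 fold changes of -1.76 to -1.47 for COL1A1, -1.85 to -1.57 for COL1A2, -1.85 to -1.56 for COL3A1, -1.39 to -1.22 for SPARC and -0.35 to -0.17 for DCN. The count of 4 genes past the thresholds was the same in these 19 fits and under the other 16 settings. Scaling by total counts put DCN at 0.0063 in place of -0.26 (edgeR, FDR = 0.984). The ratio of COL3A1 to COL1A1 went from a log2 difference of -0.17 (exact permutation p = 0.0901, unadjusted) to between -0.21 and -0.12 without 1 animal, and passed 0.05 only without D73 (-0.21, p = 0.0331). The other alternatives, 423 of 425, changed neither direction nor side of the threshold. The share of reads without mitochondrially encoded genes was not run, because these could not be named. No paired analysis was possible because the labels do not give the block of each animal, although calves were blocked by sire, starting weight, farm and age before assignment to a diet.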
